A study of Mus musculus with 6 samples.

Results

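The 26 genes described here encode the enzymes that build cholesterol from acetyl-CoA, the SREBP transcription factors and sterol sensors that control those enzymes, and a pair of cholesterol transport proteins. They were taken by gene name from the array, control spots left out, and ordered along the pathway. All 26 were present, with 53 of the array's 41174 probes. All 26 also passed the filter on dim signals, out of 15929 genes that did so in the whole series. The filter asked that a probe be well above background, by the scanner software's own flag, on all 3 arrays of at least 1 group. On the probe that stands for each gene, 25 members were well above background on all 6 arrays, and Npc1l1 passed through the CFD diet arrays alone.

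Livers of male C57BL/6J mice, an inbred laboratory strain, were compared between a CFD diet group and a control group of 3 arrays each. The CFD diet is an iron-supplemented diet of defined amino acids that holds no choline or folic acid and 0.17% methionine. Mice were allocated to it at random at 8 weeks of age and killed after 12 weeks, at an age of 20 weeks. The controls ate that diet, iron supplement included, with folic acid (2 mg/kg), choline bitartrate (0.3%) and methionine (0.4%) added, so these nutrients differed together. The labels number the replicates without stating that each is a separate mouse, so the spread that p-values rest on is that between these arrays and may be technical.

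Between 23626 and 29095 probes were well above background on the CFD diet arrays and between 21719 and 26320 on the control arrays, and no spot was saturated on any array. Signals are given as multiples of the array's 75th percentile, and levels of different probes are not set against each other. Each slide carried 1 array of each diet under a shared replicate number. Among the CFD diet arrays, replicate 2 lay nearest the controls. Across genes, it correlated with the 3 control arrays at 0.948 to 0.951, against 0.913 to 0.925 for replicates 1 and 3. Results are therefore also given within each slide and without that array.

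Cholesterol synthesis starts with the joining of acetyl-CoA units and runs through mevalonate, farnesyl diphosphate, squalene and lanosterol. The SREBP proteins are membrane-bound transcription factors that the escort protein SCAP carries from the endoplasmic reticulum to the Golgi when sterols are scarce, where they are cut and released to the nucleus. Insig proteins hold SCAP in the endoplasmic reticulum when sterols are plentiful. SREBP-2 mainly drives the genes of sterol synthesis and SREBP-1c mainly those of fatty acid synthesis, and hepatocytes are a main site of both pathways.

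The SREBP proteins bind sterol regulatory elements close to the start of their target genes, often beside a CCAAT box bound by NF-Y. Promoters are shown for genes that the comparison turns on: Hmgcs1, Cyp51, Tm7sf2 and Insig1, which fell, Insig2, which did not pass the test, and Ggps1, which rose. The sequences are RefSeq's (mouse GRCm38.p6), as the 250 bases before the start, 5′ to 3′ on the gene's strand. Capitals mark the sterol regulatory core TCACNCCAC and the NF-Y box CCAAT, each searched on both strands, so a CCAAT box on the other strand reads ATTGG.
Hmgcs1 (chr13:119690101-119690350, plus strand): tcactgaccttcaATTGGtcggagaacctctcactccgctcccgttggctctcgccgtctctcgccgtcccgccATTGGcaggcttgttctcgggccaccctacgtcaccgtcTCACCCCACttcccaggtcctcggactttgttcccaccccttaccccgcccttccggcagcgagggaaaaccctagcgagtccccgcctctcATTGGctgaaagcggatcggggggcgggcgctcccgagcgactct
Cyp51 (chr5:4104698-4104947, minus strand): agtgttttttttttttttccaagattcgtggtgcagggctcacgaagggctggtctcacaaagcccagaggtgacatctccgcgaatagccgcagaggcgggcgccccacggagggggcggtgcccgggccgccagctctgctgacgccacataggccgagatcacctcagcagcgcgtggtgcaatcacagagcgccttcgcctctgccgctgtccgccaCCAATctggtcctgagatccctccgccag
Tm7sf2 (chr19:6067851-6068100, minus strand): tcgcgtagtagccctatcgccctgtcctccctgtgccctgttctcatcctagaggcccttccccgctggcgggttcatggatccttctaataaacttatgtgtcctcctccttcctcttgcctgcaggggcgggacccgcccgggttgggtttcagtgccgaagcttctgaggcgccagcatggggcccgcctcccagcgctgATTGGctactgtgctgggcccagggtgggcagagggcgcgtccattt
Insig1 (chr5:28071162-28071411, plus strand): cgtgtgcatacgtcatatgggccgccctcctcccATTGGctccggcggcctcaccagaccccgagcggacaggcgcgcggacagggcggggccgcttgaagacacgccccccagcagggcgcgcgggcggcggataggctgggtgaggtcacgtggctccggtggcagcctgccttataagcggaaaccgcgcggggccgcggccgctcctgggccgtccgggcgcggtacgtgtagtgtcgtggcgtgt
Insig2, 1 of its 3 starts (chr1:121332590-121332839, minus strand): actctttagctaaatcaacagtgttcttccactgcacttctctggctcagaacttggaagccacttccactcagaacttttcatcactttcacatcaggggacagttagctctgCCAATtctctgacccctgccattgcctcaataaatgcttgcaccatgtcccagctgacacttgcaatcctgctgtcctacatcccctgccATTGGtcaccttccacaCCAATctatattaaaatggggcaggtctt
Ggps1 (chr13:14063489-14063738, minus strand): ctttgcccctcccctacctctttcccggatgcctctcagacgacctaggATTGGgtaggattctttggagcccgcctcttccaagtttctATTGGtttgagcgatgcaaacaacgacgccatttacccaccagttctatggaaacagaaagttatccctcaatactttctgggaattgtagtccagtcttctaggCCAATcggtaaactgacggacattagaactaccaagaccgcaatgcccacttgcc
In the Hmgcs1 promoter the core reads TCACCCCAC and begins 137 bases before the start, between CCAAT boxes on either side. The other 5 promoters shown hold no such core and 1 or 3 CCAAT boxes each.

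RefSeq had a promoter entry for 22 of the 26 members, and the motifs were counted in windows of 300 bases, which run 50 bases past the start. A CCAAT box lay in a window of 20 of the 22 genes (90.9%), against 41.1% of all genes with an entry and 42.3% of the tested genes with one. The Sp1 box GGGCGG, on either strand, lay in 19 of the 22 (86.4%), against 38.2% of all genes and 65% of the tested genes. The core TCACNCCAC was found in 1 of the 30 member windows, that of Hmgcs1, and in 1.24% of all 32851 windows. These shares describe letters in a fixed window. Ggps1 and Insig2, which were not called lower, held CCAAT boxes as well, 3 each, those of Insig2 all in 1 of its 3 windows.

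Most of the pathway was lower in the livers of CFD diet mice. Of the 26 genes, 21 (80.8%) were called lower, among them every measured gene from lanosterol to cholesterol, and 16 of these fell at least 2-fold. Ggps1 and Npc1l1 were called higher, Npc1l1 against control signals at background, and Lss, Srebf2 and Insig2 did not pass the test. Across all tested genes 51.1% were called, 27.3% lower and 23.7% higher, by the same test, while 61.5% of the members and 9.79% of all tested genes were lower by at least 2-fold. The test was limma's moderated test on log2 signals, with p-values adjusted by Benjamini and Hochberg over all 15929 genes and called below 0.05. The median log2 fold change was -1.15 over the 26 members and -0.11 over all tested genes. Scaling to the array median in place of the 75th percentile turned the 4356 lower and 3782 higher genes into 5811 and 2938, lowered the median of all genes by 0.20 and left 21 members lower.

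All 3 CFD diet arrays lay below all 3 control arrays for 21 members, as they did for 34.6% of all tested genes, and above them for 2 members, against 28.4% of all tested genes. These are not the same 21 genes as those called lower, since Srebf1 was called with overlapping arrays and Srebf2 did not overlap but was not called. The log2 standard deviation was larger among the CFD diet arrays than among the control arrays for 20 of the 21 genes called lower. Leaving out CFD diet replicate 2 left 21 members lower and 2 higher, with a median of -1.33. Quantile normalization left 16 lower, and testing all probes without the filter on dim signals left 15.

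**Figure D1:**
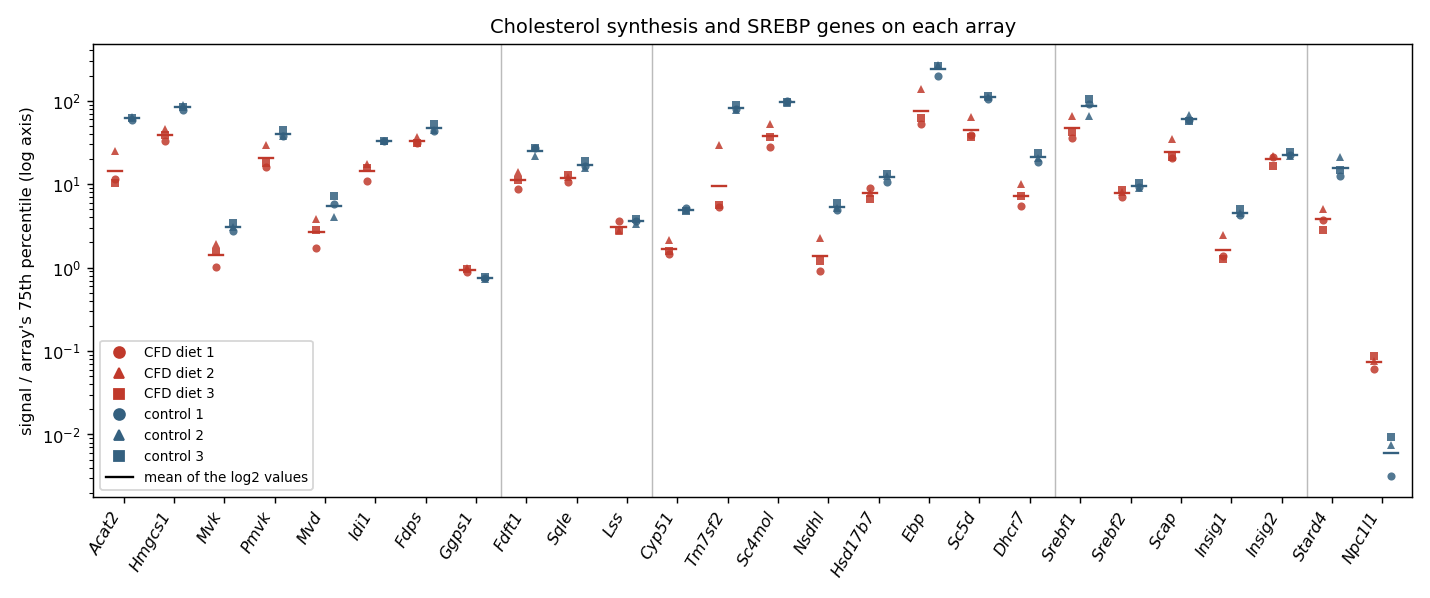
Signal of each gene on each array, as a multiple of that array's 75th percentile on a log axis, with CFD diet arrays left of control arrays, marker shapes for replicates 1 to 3, and bars at the mean of the log2 values. Grey lines separate the roles. CFD diet points lie below control points for 21 genes, and the triangle of CFD diet replicate 2 is the highest CFD diet point in 19 of the 21 genes called lower.

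**Figure D2:**
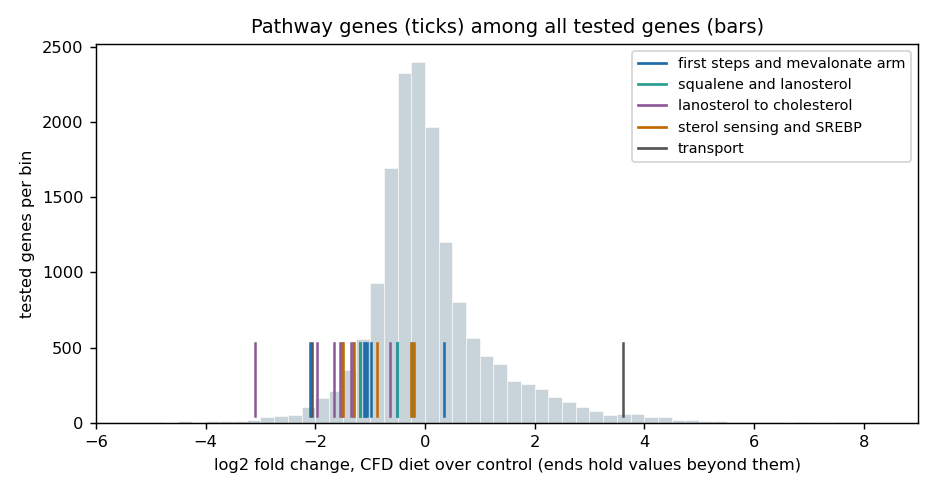
Histogram of the log2 fold change, CFD diet over control, of all 15929 tested genes (bars, genes per bin) with a tick for each of the 26 pathway genes, coloured by role. The ticks have a median of -1.15, against -0.11 for all tested genes, with Tm7sf2 farthest left at -3.10 and Npc1l1 farthest right, where the fitted value rests on control signals at background.

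Along the first steps and the mevalonate arm, 7 of the 8 genes fell and 1 rose, with a median log2 fold change of -1.07. Acat2 encodes the cytosolic thiolase that joins acetyl-CoA units, and is not the cholesterol esterifying enzyme of the same nickname. Its signals were 11.6, 24.9 and 10.4 on CFD diet arrays 1 to 3, against 58.6, 64.3 and 61.2 on control arrays 1 to 3. The groups were far apart, and the log2 fold change was -2.09 ± 0.32 (SE, n = 3 each; adjusted p by limma = 0.00284), or 23.5% of the control level. Acat3, a neighbouring paralogue of Acat2 in RefSeq, was not checked for a shared probe sequence. Hmgcs1, the cytosolic HMG-CoA synthase, had signals of 32.6, 45.6 and 39.1 in CFD diet livers, against 77.7, 89.8 and 84.8 in control livers. It fell to 46.2% of the control level (-1.12 ± 0.16, adjusted p by limma = 0.00197), and its other tested probe gave -1.21.

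The kinases that follow, Mvk and Pmvk, which phosphorylate mevalonate and phosphomevalonate, fell by similar amounts. Mvk had 1.00, 1.90 and 1.55 in CFD diet livers and 2.78, 3.05 and 3.40 in control livers. Pmvk had 16.0, 29.6 and 18.1 in CFD diet livers and 37.9, 38.0 and 45.1 in control livers. Neither overlapped between the groups, and the log2 fold changes were -1.10 ± 0.24 for Mvk and -0.98 ± 0.24 for Pmvk (adjusted p by limma = 0.00983 and 0.0155). The other Mvk probe did not pass, at -0.29. Mvd, the decarboxylase that makes isopentenyl diphosphate, had 1.70, 3.86 and 2.86 in CFD diet livers and 5.77, 4.08 and 7.13 in control livers. The groups nearly met on slide 2, and the change of -1.05 ± 0.34 had an adjusted p by limma of 0.0377.

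Idi1, which isomerizes isopentenyl diphosphate, had 10.8, 17.6 and 15.5 in CFD diet livers and 32.6, 32.7 and 32.6 in control livers. The control arrays were nearly identical, and the log2 fold change was -1.19 ± 0.19 (adjusted p by limma = 0.00328). The array's annotation places both Idi1 probes on chromosome 2 in build mm7, while RefSeq places the gene on chromosome 13, so what else these probes may bind is not known here. Fdps, the farnesyl diphosphate synthase, had 31.4, 36.3 and 31.0 in CFD diet livers and 43.5, 44.9 and 52.4 in control livers. Its fall was smaller, at -0.51 ± 0.13 (adjusted p by limma = 0.0185), and its dimmer probe did not pass (-0.63 ± 0.50).

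Ggps1 makes geranylgeranyl diphosphate, the lipid attached to Rab and other small GTPases, and so leads away from sterols. It was the exception on this arm, with 0.889, 0.982 and 0.974 in CFD diet livers and 0.747, 0.725 and 0.761 in control livers. The groups did not overlap, but the rise was small (0.35 ± 0.11, adjusted p by limma = 0.0361), and its other probes gave 0.06 and 0.23 and did not pass. The call ended with normexp background correction, with scaling to the array median (0.14), and without CFD diet replicate 3 or any of the control replicates (adjusted p by limma = 0.0958 to 0.104). It ended too with the slide as a term in the fit (adjusted p by limma = 0.0815).

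Some calls on this arm depended on single arrays. That of Pmvk ended without CFD diet replicate 3 (adjusted p by limma = 0.0554) and without control replicate 3 (0.0545). That of Mvd ended without replicate 1 or 3 of the CFD diet (0.0804 and 0.0809) or of the control (0.0911 and 0.114), and with the slide as a term in the fit (0.0632). That of Fdps ended without CFD diet replicate 1 (0.0531), CFD diet replicate 3 (0.0645) or control replicate 3 (0.0782), and after quantile normalization it changed by -0.07.

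Between farnesyl diphosphate and lanosterol, 2 of 3 genes fell. Fdft1, the squalene synthase, had 8.77, 14.2 and 11.1 in CFD diet livers and 27.4, 21.8 and 26.9 in control livers. Every CFD diet array was lower than every control array, with a log2 fold change of -1.18 ± 0.20 (adjusted p by limma = 0.00402). A much dimmer Fdft1 probe gave 0.21 and did not pass, and the mean over both probes, -0.49, was not called. Sqle, the squalene epoxidase, had 10.6, 12.2 and 13.0 in CFD diet livers and 16.6, 15.5 and 18.7 in control livers. It fell by 0.51 on the log2 scale (SE 0.14, adjusted p by limma = 0.0207). This call ended without CFD diet replicate 1 (adjusted p by limma = 0.0588), control replicate 1 (0.0551) or control replicate 3 (0.0854), and after quantile normalization the change was -0.20. Lss, which closes the sterol rings to give lanosterol, had 3.66, 2.78 and 2.86 in CFD diet livers and 3.62, 3.36 and 3.86 in control livers. These overlapped, and none of its 3 probes passed (-0.23, 0.20 and -0.29).

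All 8 measured genes from lanosterol to cholesterol fell, with a median log2 fold change of -1.53, and 7 of them fell at least 2-fold. Cyp51, the lanosterol demethylase, had 1.44, 2.13 and 1.58 in CFD diet livers and 5.15, 4.88 and 4.78 in control livers. The groups were well separated (-1.55 ± 0.17, adjusted p by limma = 0.000779), and its other probes gave -1.59 and -1.68. Tm7sf2, a sterol reductase of the endoplasmic reticulum, had 5.29, 29.1 and 5.58 in CFD diet livers and 78.6, 78.0 and 87.7 in control livers. Replicate 2 lay far above the other CFD diet arrays and still below every control array. The log2 fold change of Tm7sf2, -3.10 ± 0.63 (adjusted p by limma = 0.00741), was the lowest of the 26 and had the widest error of the members that fell. Its probe lies on chromosome 19 from 5957688 to 5957747 in build mm7, on the minus strand.

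The enzymes that remove the methyl groups fell as well. Sc4mol, the sterol methyl oxidase now named Msmo1, had 28.0, 53.1 and 36.3 in CFD diet livers and 98.3, 93.6 and 97.5 in control livers. Its control arrays lay close together, and the change was -1.35 ± 0.23 (adjusted p by limma = 0.00400). Nsdhl, the sterol dehydrogenase that follows it, had 0.920, 2.28 and 1.20 in CFD diet livers and 4.85, 5.23 and 5.88 in control livers. All 4 Nsdhl probes fell, with log2 fold changes of -1.70 to -2.05, and the brightest changed by -1.96 ± 0.32 (adjusted p by limma = 0.00346). Hsd17b7, the sterol ketone reductase, had 8.98, 7.78 and 6.67 in CFD diet livers and 10.6, 12.4 and 13.1 in control livers. Here replicate 1 was the highest CFD diet array. The fall was the smallest of the 8 (-0.63 ± 0.16, adjusted p by limma = 0.0153), and the call ended without CFD diet replicate 3 (adjusted p by limma = 0.0510) or control replicate 3 (0.0618). The call of Hsd17b7 ended too after quantile normalization (-0.40, adjusted p by limma = 0.0878) and without the filter on dim signals (0.0644).

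Ebp, the sterol isomerase, had 51.9, 138 and 61.3 in CFD diet livers and 200.1, 271 and 259.8 in control livers. No CFD diet array reached the control range, and the change was -1.67 ± 0.37 (adjusted p by limma = 0.00983). Sc5d, the lathosterol oxidase, had 38.6, 63.8 and 36.4 in CFD diet livers and 105.5, 111 and 115 in control livers. It changed by -1.30 ± 0.23 (adjusted p by limma = 0.00411). Dhcr7, which makes cholesterol from dehydrocholesterol, had 5.41, 10.1 and 7.16 in CFD diet livers and 18.4, 20.9 and 23.8 in control livers. Its change was -1.52 ± 0.24 (adjusted p by limma = 0.00307), and the other probes of Sc5d and Dhcr7 also fell.

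**Figure D3:**
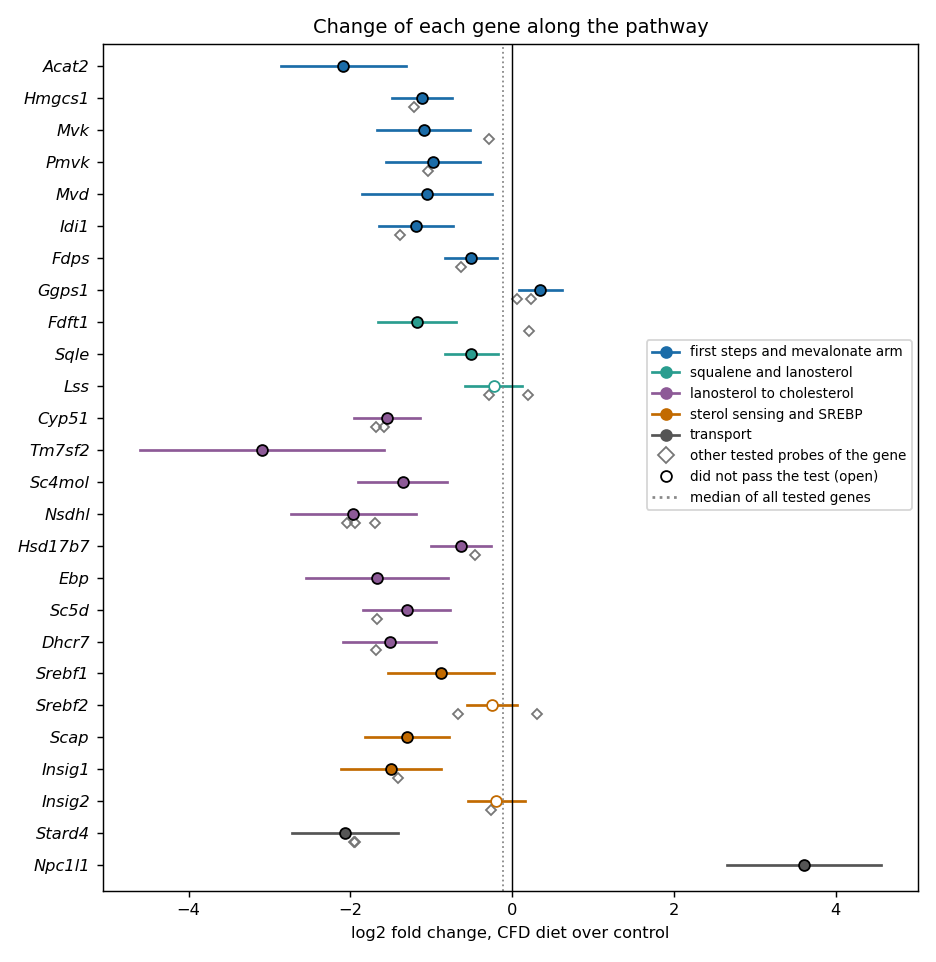
Log2 fold change, CFD diet over control, of each gene's brightest tested probe (circles, coloured by role, open where the test was not passed) with 95% confidence intervals (lines), and of the gene's other tested probes (diamonds). The dotted line is the median of all tested genes, -0.11. All 8 genes from lanosterol to cholesterol lie left of it with filled circles, whereas the probes of Srebf2, Lss and Fdft1 lie on both sides of 0.

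Of the 5 genes of sterol sensing and SREBP, 3 fell and none rose. Srebf1, which encodes SREBP-1a and SREBP-1c, had 36.2, 66.2 and 42.1 in CFD diet livers and 90.9, 65.5 and 104.9 in control livers. CFD diet replicate 2 was slightly above control replicate 2, so the groups overlapped, although the gene was called lower (-0.88 ± 0.27, adjusted p by limma = 0.0345). Within slides 1, 2 and 3, Srebf1 differed by -1.33, 0.01 and -1.32. Srebf1 was no longer called when the slide was a term in the fit (adjusted p by limma = 0.0763), after quantile normalization (-0.40) or without replicate 1 or 3 of either diet (adjusted p by limma = 0.0899 to 0.108). Srebf2, which encodes SREBP-2, had 7.06, 8.08 and 8.58 in CFD diet livers and 9.13, 8.91 and 10.2 in control livers. The groups did not overlap, but the difference was small and did not pass (-0.25 ± 0.13, adjusted p by limma = 0.145). Its other tested probes disagreed, with -0.67 called lower and 0.31 not called.

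Scap, the SREBP escort protein, had 20.5, 34.3 and 21.2 in CFD diet livers and 58.0, 66.8 and 57.6 in control livers. It fell on every slide, with a log2 fold change of -1.30 ± 0.22 (adjusted p by limma = 0.00376). Insig1, itself a known SREBP target, had 1.39, 2.44 and 1.25 in CFD diet livers and 4.23, 4.47 and 5.06 in control livers. Both tested probes fell, the brighter with a log2 fold change of -1.50 ± 0.26 (adjusted p by limma = 0.00414) and the other with -1.41. Insig2, its paralogue, had 21.2, 22.0 and 16.6 in CFD diet livers and 22.3, 21.5 and 24.1 in control livers. These overlapped, and neither tested probe passed (-0.19 ± 0.15 and -0.27 ± 0.24, adjusted p by limma = 0.307 for the brighter). After quantile normalization the brighter probe gave 0.16.

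The members of 4 pairs were compared by the difference between their log2 responses on the same arrays. With 3 arrays against 3, the exact two-sided permutation test cannot go below p = 0.1. Insig1 minus Insig2 was -1.30 ± 0.23 (SE, exact p = 0.1, adjusted over the 4 pairs 0.133), with -1.53, -0.91 and -1.47 on the 3 slides. Fdps minus Ggps1, prenyl synthases of neighbouring steps, was -0.86 ± 0.10 (exact p = 0.1, adjusted 0.133), with -0.40 after quantile normalization. Hmgcs1 minus Acat2 was 0.97 ± 0.30 (exact p = 0.1, adjusted 0.133). Srebf1 minus Srebf2 was -0.62 ± 0.28 (exact p = 0.2), with values of -0.96, 0.15 and -1.07 on the 3 slides. None of the 4 differences passed an adjusted p of 0.05.

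Of the transport genes, Stard4 fell and Npc1l1 could be given only a bound. Stard4, a soluble protein that carries cholesterol between membranes and a known SREBP-2 target, had 3.76, 5.05 and 2.83 in CFD diet livers and 12.6, 21.2 and 14.8 in control livers. All 3 probes fell, and the brightest changed by -2.07 ± 0.27 (adjusted p by limma = 0.00161). Unlike most members, its difference on slide 2 (-2.07) was larger than on slide 1 (-1.74). Npc1l1, the cholesterol uptake protein that is best known from the small intestine, rose above background on 3 CFD diet arrays and on 0 control arrays. Its signals were 0.0603, 0.0770 and 0.0869 in CFD diet livers and 0.00317, 0.00741 and 0.00942 in control livers, so the control values give only a bound. Npc1l1 was at least 3.14-fold higher in CFD diet livers. Its adjusted p by limma was 0.000818, but the gene entered the test through its CFD diet arrays alone and the fit took control signals at background as measured, so nothing rests on this p. The bound sets the CFD diet mean against the lowest signal well above background on each control array. With normexp background correction the log2 difference of Npc1l1 was 0.59 and did not pass (adjusted p by limma = 0.0642). This setting added an offset of 50 to every signal, which shrinks the log2 differences of dim probes. The 0.59 is therefore not set against the bound (1.65 on the log2 scale).

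Among the 17 members with more than 1 tested probe, all probes had the same call for 12. The 5 whose probes had different calls were Mvk, Fdps, Ggps1, Fdft1 and Srebf2. Nsdhl, Cyp51 and Stard4, with 3 or 4 probes each, were among the 12.

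The size of the change differed between slides. The median log2 difference of the 26 members was -1.48 on slide 1, -0.74 on slide 2 and -1.32 on slide 3. Over all tested genes the medians were -0.12, -0.03 and -0.15 on slides 1 to 3, and over all genes called lower they were -0.90, -0.58 and -0.95. Slide 2 gave the smallest difference for 21 of the 26 members, against 52.8% of all 15929 tested genes. Among genes called lower it did so for 19 of the 21 members and for 77.2% of all 4356. Of the 21 members called lower, 20 were lower on all 3 slides, the exception being Srebf1. CFD diet replicate 2 had the highest CFD diet signal in 19 of the 21, against 78% of all genes called lower, so the members shared this pattern with the other genes that fell.

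**Figure D4:**
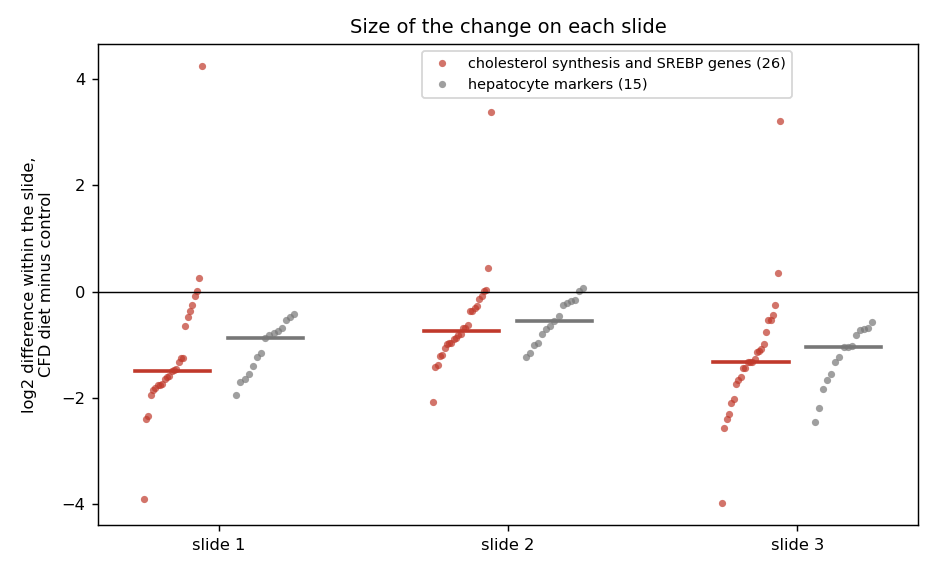
Log2 difference between the CFD diet array and the control array of the same slide, for each of the 26 genes (red) and each of 15 hepatocyte markers (grey), sorted within each slide, with bars at the medians. The gene medians are -1.48, -0.74 and -1.32 and the marker medians -0.87, -0.55 and -1.05 on slides 1 to 3, and both sets show their smallest change on slide 2.

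Markers of liver cell types moved with the diet. Of 15 hepatocyte markers, all well above background on all 6 arrays, 11 fell and 0 rose, with a median log2 fold change of -0.81 and a range of -1.77 to -0.36. Their summed signal was 1981.5 to 3286 in CFD diet livers and 3334 to 4171 in control livers. CFD diet replicate 2 was the highest CFD diet array for all 15, and without it all 15 were called lower, with a median of -0.99. After quantile normalization 7 of the 15 fell, with a median of -0.34. The 3 with the lowest p were Plg, for plasminogen (-1.48 ± 0.22), Asgr2, an asialoglycoprotein receptor subunit (-1.35 ± 0.22), and Fah, of tyrosine breakdown (-1.37 ± 0.23), with adjusted p by limma of 0.00240, 0.00313 and 0.00352. In a bulk sample, fewer cells of a type and less RNA per cell cannot be told apart.

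Markers of other cells were mostly higher. Of 7 cholangiocyte markers all rose, with a median of 3.65 and summed signals of 90.1 to 125 in CFD diet livers and 5.88 to 9.06 in control livers. Those with the lowest adjusted p were Cldn7, Spp1 and Epcam (log2 fold changes of 3.98, 3.99 and 4.55), Epcam being well above background on 1 control array. All 9 stellate cell and fibroblast markers rose, with the lowest adjusted p for Lum (2.80), Col1a1 (3.64) and Col3a1 (3.01), and with summed signals of 197 to 229 in CFD diet livers and 72.2 to 83.1 in control livers. Of 10 macrophage markers, 8 rose and 1 fell, with the lowest adjusted p for Cd68 (2.58), Lyz2 (2.21) and Itgam (3.87, on 1 control array well above background), and with summed signals of 395 to 539 in CFD diet livers and 162 to 229 in control livers. Each summed signal mainly follows the brightest probes of its list. Spp1 alone gave 84.4 to 117 of the cholangiocyte sum in CFD diet livers and 5.20 to 7.98 in control livers. Dcn, another stellate cell and fibroblast marker, gave 143 to 164 and 59.3 to 67.8 of its sum. Lyz2 gave 224 to 322 and 49.9 to 77.9 of the macrophage sum. The part of these cell type shifts in the falls of the pathway genes was not tested.

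Fewer members were lower relative to the hepatocyte markers than relative to the 75th percentile. When each array was centred on the median of the 15 markers, a scale chosen after the data were seen, 7 members were lower, 3 higher and 16 not called. The 7 were Tm7sf2 (-2.19), Acat2 (-1.19), Stard4 (-1.16), Nsdhl (-1.06), Ebp (-0.76), Cyp51 (-0.64) and Insig1 (-0.59), and the 3 were Npc1l1, Ggps1 (1.25) and Insig2 (0.71). The median of the members was then -0.24, and that of all tested genes 0.80, since this scale moved every gene up by the same amount. On it, 614 of all tested genes (3.85%) were called lower and 8988 higher. Srebf1, Hsd17b7, Fdps, Sqle, Srebf2, Lss and Insig2 changed sign, to values of 0.03, 0.27, 0.39, 0.40, 0.65, 0.67 and 0.71. On the 75th percentile scale, Tm7sf2, Acat2, Stard4 and Nsdhl were lower by more than the most lowered hepatocyte marker, Tdo2 (-1.77).

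**Figure D5:**
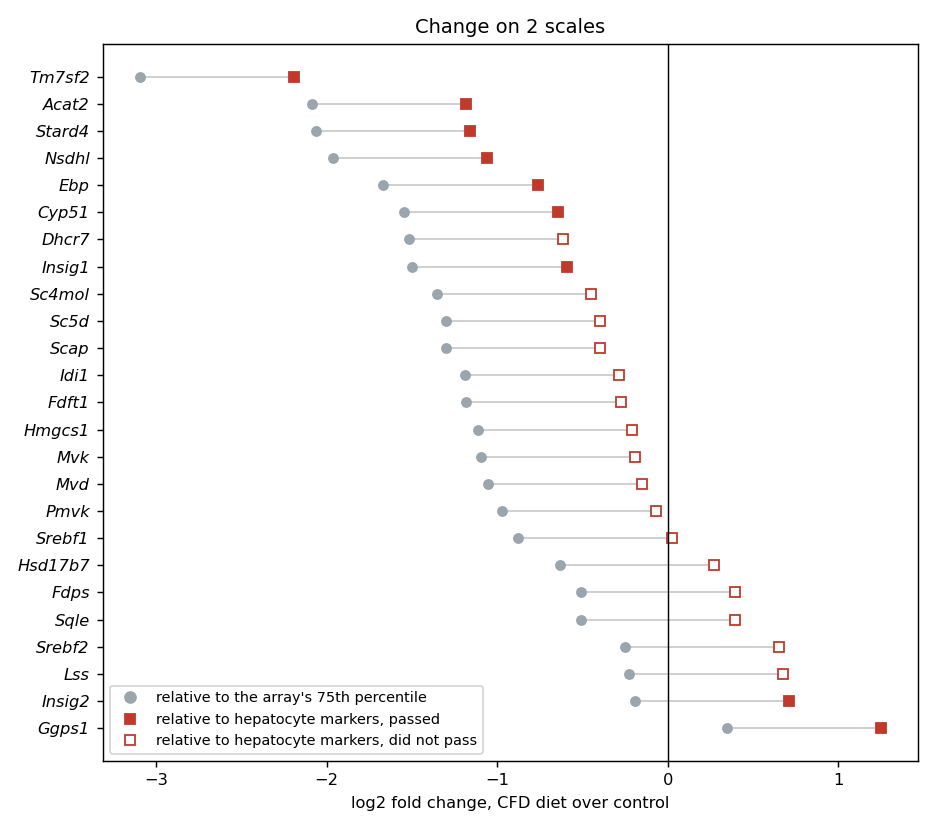
Log2 fold change, CFD diet over control, of 25 of the 26 genes (Npc1l1 left out, since its control signals were at background) on the scale of the array's 75th percentile (grey circles) and relative to the median of 15 hepatocyte markers (red squares, filled where the test was passed). The shift is the same for every gene, and Tm7sf2, Acat2, Stard4, Nsdhl, Ebp, Cyp51 and Insig1 lie left of 0 with filled squares.

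Related genes outside the 26 are given beside all tested genes, of which 27.3% were called lower and 23.7% higher. The counts of the next 2 lists lie near these shares and are not read as a response of either list. Of 13 tested enzymes of isoprenoid use and sterol synthesis, 5 fell and 3 rose, with a median of -0.26 that turned to 0.65 relative to the hepatocyte markers. Erg28, a scaffold of the sterol demethylation enzymes, changed by -1.09 ± 0.19, and Cyb5r3, which passes electrons to sterol enzymes, by -1.22 ± 0.22. Por, the reductase that supplies the lanosterol demethylase, changed by -0.75 ± 0.16, whereas Pdss1, which makes the side chain of coenzyme Q, rose by 0.60 ± 0.13 (adjusted p by limma = 0.00447 to 0.00896 for these 4). The call of Por ended after quantile normalization (-0.30) and that of Pdss1 with scaling to the array median (0.40). Of 12 genes of SREBP processing and sterol-regulated degradation, 5 fell and 2 rose, with a median of -0.15 that turned to 0.75 relative to the hepatocyte markers. Pgrmc1, a heme protein reported to bind the SCAP and Insig complex, changed by -0.99 ± 0.17, and Erlin1, an endoplasmic reticulum scaffold, by -0.54 ± 0.14, or -0.31 and not called after quantile normalization. Mbtps2, the protease that makes the final cut of SREBP, had signals of 0.0535, 0.0515 and 0.0505 in CFD diet livers and 0.0141, 0.00617 and 0.0141 in control livers. It is counted among the 2 that rose, but it entered the test through its CFD diet arrays alone. Since just 1 of its control arrays was well above background, no exact fold is given. With normexp background correction, whose offset shrinks differences of dim probes, the log2 difference of Mbtps2 was 0.35 and did not pass (adjusted p by limma = 0.188).

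The lipogenic targets of SREBP-1 also fell for the most part, with 12 of 16 tested genes lower, 2 higher and a median of -1.25. Elovl6, a fatty acid elongase, changed by -1.70 ± 0.19 and Acacb, the acetyl-CoA carboxylase found at mitochondria, by -2.20 ± 0.36. The desaturases Scd2 and Fads2 were the 2 that rose, by 2.07 ± 0.14 and 0.85 ± 0.11 (adjusted p by limma = 0.000156 and 0.00160). Within slides 1 to 3 the median of this list was -1.48, -0.45 and -1.62, and relative to the hepatocyte markers 6 of its genes were lower and 2 higher, with a median of -0.35. Of 26 genes of LXR signalling, cholesterol efflux, storage and uptake, 8 fell and 8 rose. These counts lie near the shares of all tested genes, 27.3% called lower and 23.7% called higher. The median of this last list was -0.22, which turned to 0.01 after quantile normalization and to 0.68 relative to the hepatocyte markers. Soat1, which esterifies cholesterol in macrophages and other cells, rose by 2.59 ± 0.20 and Vldlr, the very-low-density lipoprotein receptor, by 1.95 ± 0.26. Ch25h, the cholesterol hydroxylase, had signals of 0.162, 0.128 and 0.1399 in CFD diet livers and 0.0333, 0.0209 and 0.0154 in control livers. It too entered the test through its CFD diet arrays alone, with 1 control array well above background. With normexp background correction, and the offset that goes with it, its log2 difference was smaller, 0.78, and still passed (adjusted p by limma = 0.00433). Lcat, the plasma cholesterol acyltransferase made by hepatocytes, changed by -1.60 ± 0.25 (adjusted p by limma = 0.00300).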

How the data were processed

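Liver RNA was measured on 6 single-dye Agilent arrays (Cy3), 3 of CFD diet and 3 of control livers. Per the file headers, the deposited scanner files give intensity per spot after background subtraction by Agilent Feature Extraction 10.5.1.1, while version 10.7 stands in the submitters' processing notes. A deposited table of values for the whole series also holds intensity values on a linear scale, normalized by the authors in a way not given in the sources used here. Each of its columns matched another replicate of its own group by rank (column medians 72.7, 73.9 and 80.6 for CFD diet and 68.0, 61.5 and 67.6 for control). Its genes were not centred, and which replicate numbering was intended is unknown. It served as an alternative, and 0 columns were left unmapped.

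Control and outlier spots were left out, spots of a probe averaged, and log2 values taken relative to the array's 75th percentile. A probe with several spots counted as above background when at least as many of its spots were flagged so as not. Each gene was represented by its brightest tested probe, by the mean over the 6 arrays. Genes were named through RefSeq (GRCm38.p6), and all 26 members matched. Coordinates of probes are those of the files (mm7), and the exon or UTR under each probe was not analysed here. The fit used limma 3.58.1 in R 4.3.3 and was tested on simulated data. The number of arrays limits the precision.

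Replicate numbers were shared between diets and, per the file headers, marked a shared slide and scan. The reported fit has no slide term. The slide was a block in an alternative fit, and differences are also given within slides. Deviations of same-numbered arrays correlated at 0.17, -0.07 and -0.01. The 26 members, the other gene lists and the marker lists were chosen with earlier results of these data known, so none is independent support. Named besides the members were the 4 genes of each other list and the 3 of each marker list with the lowest adjusted p. Tdo2 and Dcn were picked after their values were seen. 1 gene that this rule names is not reported here. The 16 other settings changed the background correction, scaling, filter, block, variance settings, probe choice, source of values or 1 array, and centring on hepatocyte markers was added after the data were seen.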

Additional observations from a re-analysis of the deposited data

How the results depend on the processing

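Of the 21 members called lower, 14 kept their call in all 16 other settings besides the centring on hepatocyte markers, and the 7 that lost it in at least 1 were Pmvk, Mvd, Fdps, Fdft1, Sqle, Hsd17b7 and Srebf1. Members called lower numbered 15 to 21 when 1 array was left out, fewest without control replicate 3, members called higher 1 or 2, all genes called 5931 to 8887, and the members' median lay between -1.33 and -0.99. Members called higher were 0 with normexp background correction, where Npc1l1 and Ggps1 both missed the threshold. They were 1, Npc1l1, with array median scaling, without the filter on dim probes and with the mean over probes, and 1, Ggps1, with probes well above background on all 6 arrays, where Npc1l1 was not tested. Array median scaling gave 8749 calls, of which 66.4% were lower, against 53.5% with the 75th percentile. Fitting all tested probes as separate rows gave 11684 calls among 23511 probes, with 21 members lower. Quantile normalization turned Insig2 to 0.16 and moved Fdps minus Ggps1 to -0.40. Relative to the hepatocyte markers, 7 members were lower, the members' median was -0.24, and Fdps (0.39), Sqle (0.40), Lss (0.67), Hsd17b7 (0.27), Srebf1 (0.026), Srebf2 (0.65) and Insig2 (0.71) changed sign, since this scale raised every log2 fold change by the same amount.

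With the replicate block (the shared number and slide), 19 members were called lower and 1 higher, among 7325 genes called. The calls of Mvd (adjusted p by limma = 0.0632), Srebf1 (0.0763) and Ggps1 (0.0815) ended, and no other member's call changed. Deviations of same-numbered arrays correlated at 0.17, -0.07 and -0.01, and so few values cannot decide whether the slide term is needed. The calls of Mvd, Srebf1 and Ggps1 therefore depend on a fit without the slide. Only 3 arrays a group and a single dye limit all of these values. For Npc1l1, the control signals were not well above background, so its size is a bound.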
